A study of Mus musculus with 10 samples.

Results

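A set of 9 transcription factors that give lymphatic endothelial cells (LEC) their identity or build lymphatic valves was followed in LEC of mouse melanomas after acute inhibition of angiopoietin-2 (Ang2), which binds Tie2, a receptor of endothelial cells. They were Prox1, Nr2f2, Sox18, Sox17, Sox7, Foxc1, Foxc2, Gata2 and Maf, found by symbol as 9 of the 23510 genes in the deposited table. LEC were isolated by cell sorting. The tumours were MT-ret melanomas that had grown from fragments placed on the ventral flank of C57BL/6N mice. Of the 10 mice, 5 had received anti-Ang2 and 5 control IgG by intraperitoneal injection, and all were killed 12 hours later. There was 1 library per mouse, starting from 0.5 ng of RNA. The libraries of both groups therefore came from tumour-bearing hosts of the same strain, and the labels name neither the antibody clone nor a batch. The comparison asks how these factors respond when Ang2 is blocked for 12 hours.

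Lymphatic identity is set in the embryo when Sox18, a SoxF factor, and Nr2f2 (COUP-TFII), an orphan nuclear receptor of venous cells, switch on Prox1, the homeobox factor that LEC need throughout life to stay lymphatic. In collecting vessels, LEC exposed to disturbed flow raise the zinc finger factor Gata2 and the forkhead factor Foxc2, which together with Prox1 and Foxc1 drive the folding of valve leaflets. Sox17 and Sox7 are the other SoxF factors, best known from arterial and early blood vessel development, and Maf is a basic leucine zipper factor of the large Maf group.

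Foxc2 and Foxc1 are close relatives, and reads from a stretch that is the same in both genes cannot be assigned to one of them. The coding windows around their longest shared run are shown for this reason. Each has 150 bases, read 5′ to 3′ from GENCODE M21 transcripts of the mm10 assembly, with capitals at the bases that differ between the 2 genes. Positions count from 1 at the first base of the start codon. For Foxc2 (coding bases 367 to 516) and Foxc1 (388 to 537), 139 of 150 bases were identical (92.7%):
Foxc2: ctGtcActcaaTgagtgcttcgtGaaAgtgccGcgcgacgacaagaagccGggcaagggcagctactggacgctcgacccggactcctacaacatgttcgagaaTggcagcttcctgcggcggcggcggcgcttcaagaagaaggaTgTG
Foxc1: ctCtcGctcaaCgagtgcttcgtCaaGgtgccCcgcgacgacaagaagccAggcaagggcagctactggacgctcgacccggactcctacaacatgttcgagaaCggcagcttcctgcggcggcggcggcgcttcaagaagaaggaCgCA
The longest run without a difference was 53 bases. Of the stretches of 50 bases in the transcripts, 4 were shared by Foxc2 (of 2676) and Foxc1 (of 5795). These 4 overlap each other within that run of 53 bases.

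In mm10, Prox1 lies at chr1:190118035-190170714 on the minus strand, Nr2f2 at chr7:70351944-70366735 (minus), Sox18 at chr2:181669836-181671640 (minus) and Sox17 at chr1:4490931-4497354 (minus). Sox7 lies at chr14:63943673-63950732 on the plus strand, Foxc1 at chr13:31806633-31812476 (plus), Foxc2 at chr8:121116171-121118895 (plus), Gata2 at chr6:88193891-88207032 (plus) and Maf at chr8:115682942-115707794 (minus). Each span covers the whole annotated gene, and Foxc1 and Foxc2 have 1 exon each. RefSeq promoter windows (GRCm38.p6) were at hand for 4 of the 9 factors. Gata2 has a further window at chr6:88198414-88198663 (plus), which is not printed, and which start these cells use was not tested. The 250 bases before the more upstream start of Gata2, which fell, and before the start of Nr2f2, which was lower without passing the test, are shown because their levels bear on the comparison:
Gata2, chr6:88193641-88193890, plus strand: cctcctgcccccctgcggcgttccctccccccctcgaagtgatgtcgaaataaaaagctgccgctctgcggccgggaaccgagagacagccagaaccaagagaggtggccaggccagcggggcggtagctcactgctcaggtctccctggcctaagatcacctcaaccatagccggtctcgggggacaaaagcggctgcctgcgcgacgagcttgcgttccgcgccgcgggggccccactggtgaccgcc
Nr2f2, chr7:70366747-70366996, minus strand: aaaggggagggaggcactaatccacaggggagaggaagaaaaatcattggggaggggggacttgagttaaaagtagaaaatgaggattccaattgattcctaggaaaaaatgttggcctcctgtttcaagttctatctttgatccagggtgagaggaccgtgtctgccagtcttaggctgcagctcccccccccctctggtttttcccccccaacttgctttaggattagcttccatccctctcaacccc
Both strands were searched for motifs of the families studied here and of the ETS family. The letters searched were AACAAT and also AACAAAG for SOX factors, GTAAACA for forkhead (FOX) factors, AGATAA and also TGATAA for GATA factors, AGGTCA as the nuclear receptor half-site, TGCTGAC as the MAF half-site and CCGGAAG for ETS factors. The alternative letters of a family overlap each other and were counted once per promoter. All of the 6 windows of Prox1, Nr2f2, Foxc1 and Gata2 held 0 matches. Among 32851 mouse promoters of the same length, 13.8% held the SOX, 3.17% the FOX, 16.6% the GATA, 14.0% the nuclear receptor, 3.81% the MAF and 6.91% the ETS letters. The absence of a match says only that these letters are not in the window.

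The libraries held 38090933 to 83850341 gene counts, with 19201 to 21215 genes detected. Over 45 pairs of libraries, the lowest chi-square of their counts was 55.1 per degree of freedom, so none was a repeat of another. The sorted cells carried the markers of LEC. Lyve1, the hyaluronan receptor of lymphatic capillaries, averaged 2020 FPKM (a level normalized to exon length and library size) in anti-Ang2 and 1640 FPKM in IgG libraries, Mmrn1 978 and 1170 FPKM, Flt4 (VEGFR-3) 295 and 399 FPKM, and podoplanin (Pdpn) 131 and 156 FPKM. Of the 10 LEC markers, 2 were called lower by edgeR, the chemokine Ccl21a, at 456 FPKM in anti-Ang2 and 1040 FPKM in IgG libraries, and Nrp2, at 23.0 and 63.8 FPKM, and 0 were called higher; their part in the results on the factors was not tested. The summed level of 10 LEC markers, Prox1 among them, was 15200 to 20300 CPM (counts scaled to library size) in anti-Ang2 and 18700 to 21900 CPM in IgG libraries (exact permutation test, two-sided, p = 0.0952 and 0.122 after adjustment over 9 marker lists). RNA of other cells was also present. The sum of 12 melanoma markers was 5580, 3980, 4570, 1710 and 1130 CPM in anti-Ang2 libraries 1 to 5, against 442, 1750, 269, 1860 and 579 CPM in IgG libraries 1 to 5 (p = 0.0476, adjusted p = 0.0857, same exact permutation test). Anti-Ang2 1, 2 and 3 were thus above every other library. The sum of 15 macrophage markers was 205, 71.0, 248, 148 and 36.2 CPM in anti-Ang2 libraries, against 176, 28.2, 25.3, 26.1 and 23.1 CPM in IgG libraries (p = 0.0952, adjusted p = 0.122, same exact permutation test), and IgG 1 stood far above the other IgG libraries. Of the genes in these 2 lists, only a second entry of Itgam was at 0 in every library. Blood endothelial markers summed to 2470 to 5090 CPM in anti-Ang2 and 3480 to 5570 CPM in IgG libraries (adjusted exact permutation p = 0.0857). Listed markers of mast cells, which also use Gata2, summed to 39.7 to 105 CPM in anti-Ang2 and 17.2 to 41.5 CPM in IgG libraries over the 4 genes found (adjusted exact permutation p = 0.0714). In IgG libraries these mast cell sums ranked in the same order as the melanoma sums. In anti-Ang2 libraries they did not, with 105, 74.3, 51.0, 68.6 and 39.7 CPM in libraries 1 to 5. Which cells they came from was not tested. None of the 9 sums passed after adjustment, those of T cells (0.0714), mural cells (0.0857), keratinocytes (0.384) and fibroblasts (0.913) included. By principal components, anti-Ang2 5 lay apart on the second (102.5) and anti-Ang2 4 on the third (75.84), with the lowest quality weights (0.417 and 0.606).

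All 9 factors were well above the filter on low counts, with 376 (Sox17) to 97982 (Prox1) counts in a library, and all 9 were tested. After anti-Ang2, Foxc2 fell by 51.8% and Gata2 fell by 24.8%, and 0 factors rose. Nr2f2 and Maf were also lower on average but missed the threshold. Prox1, Sox18, Sox17, Sox7 and Foxc1 did not pass and their groups overlapped. In numbers, 2 of 9 were called lower (edgeR quasi-likelihood test, Benjamini-Hochberg adjusted p under 0.05), where 2.8% of the 16240 tested genes were called lower, 1.34% higher and 4.13% either way. The groups did not overlap for 2 of 9 factors, against 6.1% of all tested genes. At an unadjusted p under 0.05 there were 4 of 9 factors and 2962 of 16240 genes. The log2 fold change was negative for 7 of 9 factors, with a median of -0.14, and for 48.0% of all tested genes, with a median of 0.01. With so few genes, these counts describe the list.

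**Figure D1:**
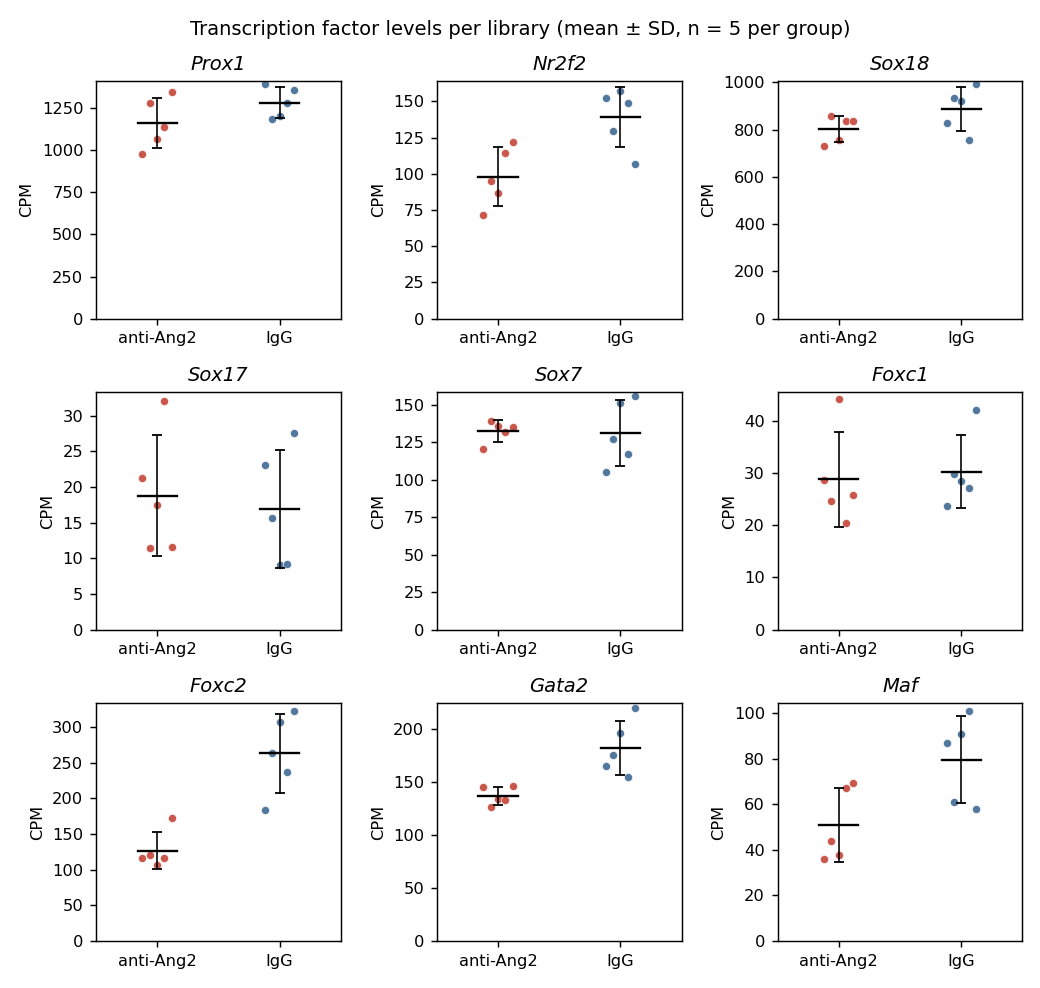
Level of each factor in CPM (counts scaled to library size, linear axis starting at 0), with 1 point per library, anti-Ang2 left of IgG, the bar at the group mean and whiskers of 1 SD (n = 5 each). Foxc2 and Gata2 are the 2 factors whose anti-Ang2 libraries all lie below every IgG library.

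**Figure D2:**
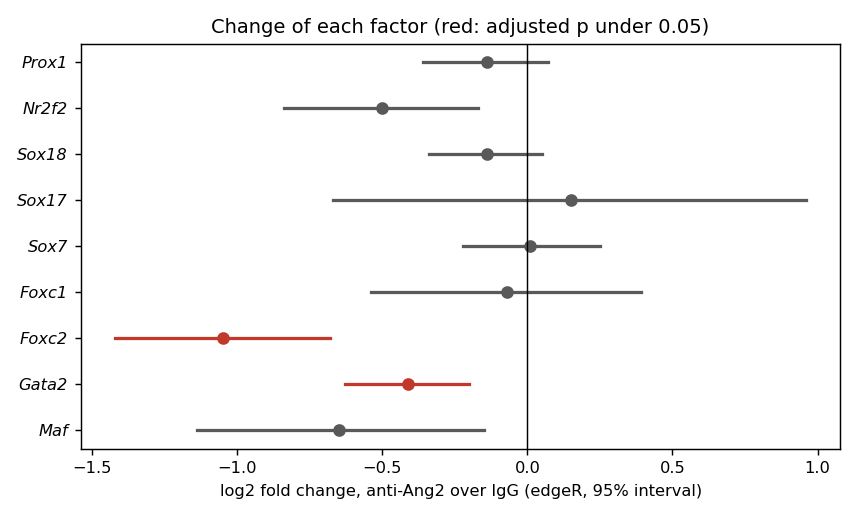
Log2 fold change, anti-Ang2 over IgG, from edgeR with its 95% confidence interval, for the 9 factors (n = 5 each). Red marks an adjusted p under 0.05: Foxc2 lies at -1.05 and Gata2 at -0.41, and the intervals of Nr2f2 and Maf also lie below 0.

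Foxc2, which directs the formation and upkeep of lymphatic valves, was the most reduced factor. It had 116, 121, 107, 116 and 173 CPM in anti-Ang2 libraries 1 to 5, against 184, 264, 307, 237 and 322 CPM in IgG libraries 1 to 5. Every anti-Ang2 library lay below every IgG library; anti-Ang2 5 was the highest of its group and IgG 1 the lowest of its own. The means were 127 ± 26.3 CPM in anti-Ang2 and 263 ± 55.5 CPM in IgG libraries (SD, n = 5 each). The log2 fold change was -1.05 ± 0.17 (SE, 95% interval -1.42 to -0.68) and the adjusted p 0.00545 by edgeR. Foxc2 ranked 166 of 16240 by p, and in the authors' deposited table it has a log2 fold change of -0.99 with an adjusted p of 4.18e-07. The call held without each library in turn (log2 fold change -1.19 to -0.97, adjusted p 0.00202 to 0.0187 by edgeR). With the melanoma sum as a covariate the log2 fold change was -0.83 ± 0.21 (adjusted p = 0.111 by edgeR), and without anti-Ang2 1, 2 and 3 it was -0.87 ± 0.24 (adjusted p = 0.128); with the macrophage sum it was -0.70 ± 0.12 (adjusted p = 0.0343). In bulk RNA, fewer cells of a type and less RNA per cell cannot be told apart.

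Gata2, which stands upstream of valve genes in LEC, was reduced less. It had 145, 126, 134, 133 and 146 CPM in anti-Ang2 libraries, against 165, 175, 196, 155 and 219.5 CPM in IgG libraries. The anti-Ang2 libraries were close together (coefficient of variation 6.19%, against 14.1% in IgG) and all below the lowest IgG library. The log2 fold change was -0.41 ± 0.10 (95% interval -0.63 to -0.20) and the adjusted p 0.0401 by edgeR. This call was lost without anti-Ang2 1 (adjusted p = 0.0681), 2 (0.0886), 3 (0.103) or 4 (0.0774) and without IgG 2 (0.0769), 3 (0.110) or 5 (0.0752), each by edgeR, although the log2 fold change stayed between -0.47 and -0.34. It was also lost without anti-Ang2 4 and 5 (-0.44, adjusted p = 0.0628 by edgeR), without anti-Ang2 1, 2 and 3 (-0.39, adjusted p = 0.235) and without the filter on low counts (-0.42, adjusted p = 0.0529), and with the melanoma sum (-0.29 ± 0.13, adjusted p = 0.388) and the macrophage sum (-0.34 ± 0.12, adjusted p = 0.304) as covariates.

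Nr2f2, the venous nuclear receptor that also keeps LEC identity, was lower in 3 anti-Ang2 libraries than in any IgG library. It had 71.7, 95.3, 86.7, 114 and 122 CPM in anti-Ang2 libraries, against 152, 129.8, 157, 149 and 107 CPM in IgG libraries. Anti-Ang2 4 and 5 lay within the IgG range, whose lower end was IgG 5. The log2 fold change was -0.50 ± 0.15 (95% interval -0.84 to -0.17), with an adjusted p of 0.0950 by edgeR, so Nr2f2 did not pass. It passed with DESeq2 (-0.49, adjusted p = 0.0263), with limma-voom and quality weights (-0.61, adjusted p = 0.0263) and without anti-Ang2 4 and 5 (-0.73 ± 0.14, adjusted p = 0.0208 by edgeR), and the authors' deposited table gives -0.40 with an adjusted p of 0.0309. The kit does not mark strand, and exons of Nr2f2 share 643 bases with B130024G19Rik on the opposite strand. That gene had a log2 fold change of -0.94 (adjusted p = 0.0362 by edgeR), and its reads and those of Nr2f2 cannot be told apart in the shared bases. Shorter or fainter overlaps exist for Prox1 (133 bases with Prox1os, mean count 114), Sox17 (804 bases with Gm37587, mean count 2.6) and Maf (440 bases with Gm15655, not analysed here).

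Maf had a similar order of libraries. It had 35.9, 43.9, 37.6, 67.1 and 69.5 CPM in anti-Ang2 libraries, against 87.1, 61.0, 91.0, 101 and 58.1 CPM in IgG libraries. Anti-Ang2 1, 2 and 3 lay below every IgG library, and anti-Ang2 4 and 5 above the lowest 2 of them. The log2 fold change was -0.65 ± 0.23 (95% interval -1.14 to -0.15), with an adjusted p of 0.144 by edgeR. Maf passed with limma-voom and quality weights (-0.80, adjusted p = 0.0365) and without anti-Ang2 4 and 5 (-1.04 ± 0.20, adjusted p = 0.0185 by edgeR). It did not pass with DESeq2 (adjusted p = 0.0511), and the authors' deposited table gives -0.46 with an adjusted p of 0.0602. Without anti-Ang2 1, 2 and 3, the libraries of highest melanoma sum, it was -0.23 (adjusted p = 0.671 by edgeR) and Nr2f2 was -0.24 (adjusted p = 0.487). With the melanoma sum as a covariate, the log2 fold change of Maf was -0.33 ± 0.26 (adjusted p = 0.633 by edgeR) and that of Nr2f2 -0.27 ± 0.18 (adjusted p = 0.573).

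Prox1, the master factor of lymphatic identity, had 979.7, 1278, 1068, 1137 and 1343 CPM in anti-Ang2 libraries, against 1389.9, 1183, 1205, 1281 and 1355 CPM in IgG libraries. Anti-Ang2 1, 3 and 4 lay below the lowest IgG library and the others within the IgG range. The log2 fold change was -0.14 ± 0.10 (95% interval -0.36 to 0.07, adjusted p = 0.495 by edgeR), so that the interval reaches from -21.9% to 4.94%. Sox18, which acts with Nr2f2 above Prox1 in the mouse embryo, had 733 to 859 CPM in anti-Ang2 and 757 to 993 CPM in IgG libraries, with a log2 fold change of -0.14 ± 0.09 (-0.34 to 0.05, adjusted p = 0.451 by edgeR). In Sox18, 1 anti-Ang2 library lay below every IgG library.

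The remaining factors had groups that overlapped widely. Sox7 had 120.4, 139, 136, 132 and 135 CPM in anti-Ang2 libraries, against 105, 127, 151, 117 and 156 CPM in IgG libraries. Its log2 fold change was 0.01 ± 0.11 (-0.22 to 0.25, adjusted p = 0.965 by edgeR). Sox17 ran from 11.5 to 32.1 CPM in anti-Ang2 and from 9.14 to 27.6 CPM in IgG libraries, and its interval of -0.67 to 0.96 around 0.15 was the widest of the 9 (adjusted p = 0.890 by edgeR). Sox17 was also the most variable factor among mice, with coefficients of variation of 45.4% in anti-Ang2 and 48.7% in IgG libraries. Foxc1, the forkhead partner of Foxc2, ran from 20.5 to 44.2 CPM in anti-Ang2 and from 23.7 to 42.0 CPM in IgG libraries, with a log2 fold change of -0.07 ± 0.21 (-0.54 to 0.39, adjusted p = 0.906 by edgeR).

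Per length, the factors spanned a wide range of levels. Sox18 was the highest, at 518 ± 37.4 FPKM in anti-Ang2 and 562 ± 46.6 FPKM in IgG libraries, followed by Prox1 at 144 ± 18.7 and 157 ± 12.5 FPKM (SD, n = 5 each). Next came Foxc2 at 48.6 ± 11 FPKM in anti-Ang2 and 98.7 ± 18.7 FPKM in IgG libraries, Sox7 at 41.9 ± 2.27 and 40.8 ± 5.86 FPKM, and Gata2 at 26.5 ± 2.34 and 34.6 ± 4.02 FPKM. Foxc2 thus stood well above Sox7 in IgG libraries but within 1 SD of it in anti-Ang2 libraries. Nr2f2 had 11.9 ± 2.72 FPKM in anti-Ang2 and 16.6 ± 2.80 FPKM in IgG libraries, Foxc1 7.57 ± 2.38 and 7.83 ± 1.59 FPKM, Maf 6.47 ± 2.24 and 9.98 ± 2.57 FPKM, and Sox17 4.14 ± 1.97 and 3.64 ± 1.73 FPKM. Neighbours whose ranges of 1 SD overlapped were Foxc2 and Sox7, Nr2f2 and Foxc1, Foxc1 and Maf, and Maf and Sox17 in anti-Ang2 libraries, and Sox7 and Gata2, and Maf and Foxc1, in IgG libraries.

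Ratios within a library need no scaling between libraries, and 7 pairs of relatives or partners were compared in this way. The balance of the forkhead pair differed between the groups. Foxc1 amounted to 24.5%, 20.3%, 41.5%, 17.6% and 15% of the CPM of Foxc2 in anti-Ang2 libraries, against 12.9%, 11.3%, 9.28%, 11.5% and 13.1% in IgG libraries. All 5 anti-Ang2 libraries were higher than every IgG library. Reads that lie wholly within the run of 53 bases that both genes share, in the windows shown above, cannot be assigned to either gene. The mean log2 ratio was -2.17 ± 0.57 in anti-Ang2 and -3.12 ± 0.20 in IgG libraries, a difference of 0.95 (exact permutation test, two-sided, p = 0.00794, the smallest that 5 against 5 libraries allow, and 0.0278 after adjustment over 7 pairs). Foxc2 relative to Prox1, both LEC factors, was 11.9%, 9.46%, 9.98%, 10.2% and 12.9% in anti-Ang2 libraries, against 13.2%, 22.3%, 25.5%, 18.5% and 23.7% in IgG libraries. Its log2 ratio fell by 0.90 (exact permutation p = 0.00794, adjusted p = 0.0278), again without overlap, the nearest libraries being anti-Ang2 5 and IgG 1. The log2 ratio of Gata2 to Foxc2 was 0.13 ± 0.24 in anti-Ang2 and -0.51 ± 0.20 in IgG libraries (exact permutation p = 0.0159, adjusted p = 0.0370). Each of these ratios holds Foxc2, so they largely restate its fall in the same libraries and are not separate results. Sox7 to Sox18 and Prox1 to Nr2f2 differed by 0.17 and 0.36 (exact permutation adjusted p = 0.0667 each), Sox17 to Sox18 by 0.32 (0.546) and Sox7 to Sox17 by -0.15 (0.698). Without anti-Ang2 1, 2, 3 or 4 or IgG 2 or 4, 0 of the 7 pairs passed, with 0.0556 as the lowest adjusted exact permutation p in each. By contrast, 3 passed without anti-Ang2 5 or IgG 1, 4 without IgG 3 and 5 without IgG 5. All of these settings compare 4 against 5 libraries, so the ratio calls depend on which library is left out.

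**Figure D3:**
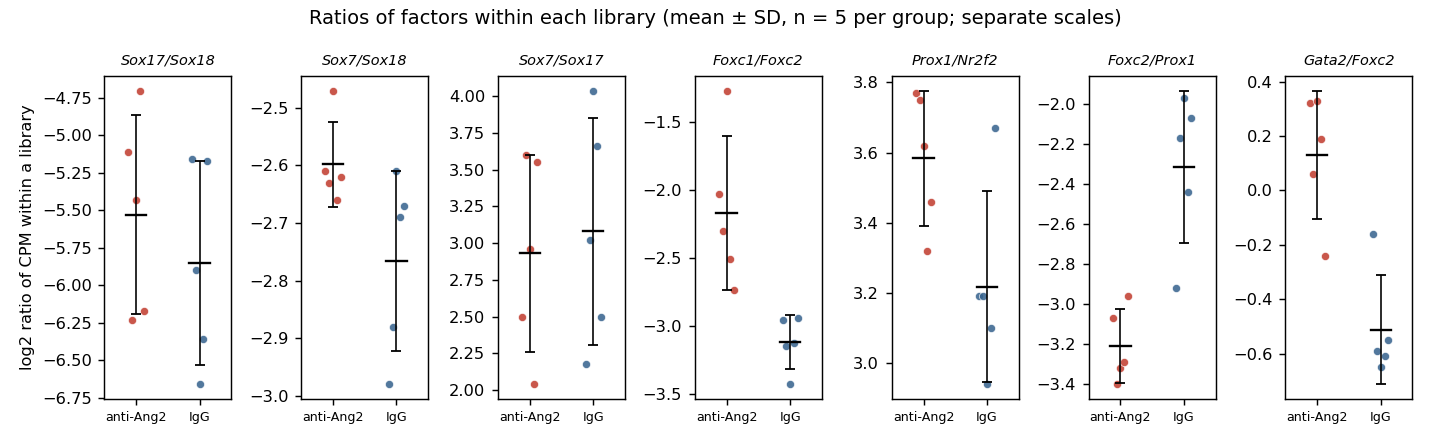
Log2 ratio of the CPM of 2 factors within each library for the 7 pairs, anti-Ang2 left of IgG, with 1 point per library, the bar at the group mean, whiskers of 1 SD (n = 5 each) and a scale of its own for each pair. Foxc1/Foxc2 is higher and Foxc2/Prox1 lower in all 5 anti-Ang2 libraries than in every IgG library.

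Besides the treatment, the factors were compared for how they varied among mice. After the group means were removed from log2 CPM, 1 of 36 pairs passed over the 10 libraries. Nr2f2 and Maf varied together, with Pearson r = 0.93 (permutation p = 5e-04, adjusted p = 0.0180 over 36 pairs) and Spearman rho = 0.96 (permutation p = 0.00068, adjusted p = 0.0245). The r was 0.95 without the 2 libraries farthest from the median, 0.95 within anti-Ang2 and 0.89 within IgG libraries. The other pairs lay between -0.69 and 0.75; Foxc2 and Gata2 had r = 0.70 (adjusted p = 0.373 by permutation). Over all 10 libraries with the treatment kept in, the genes most like Foxc2 among 9469 of at least 10 CPM were Sptlc2 (r = 0.98), a subunit of serine palmitoyltransferase, Sumo3 (0.98) and Ly6e (0.97). For Gata2 they were the epoxide hydrolase Ephx1 (0.98), periplakin (Ppl, 0.97) and Lrrc1 (0.96). For Nr2f2 they were Maf (0.96), Znrf2 (0.93) and Kat6b (0.93), and for Maf the apoptosis inhibitor Xiap (0.97), Nr2f2 (0.96) and Mlh3 (0.95). For Prox1, Tmem126b (0.94) came first, for Sox18 Sema6b (0.92), for Sox17 Fam167b (0.92), for Sox7 Kctd18 (0.89) and for Foxc1 Sphk2 (0.95). These likenesses describe 10 libraries that share the treatment contrast.

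**Figure D4:**
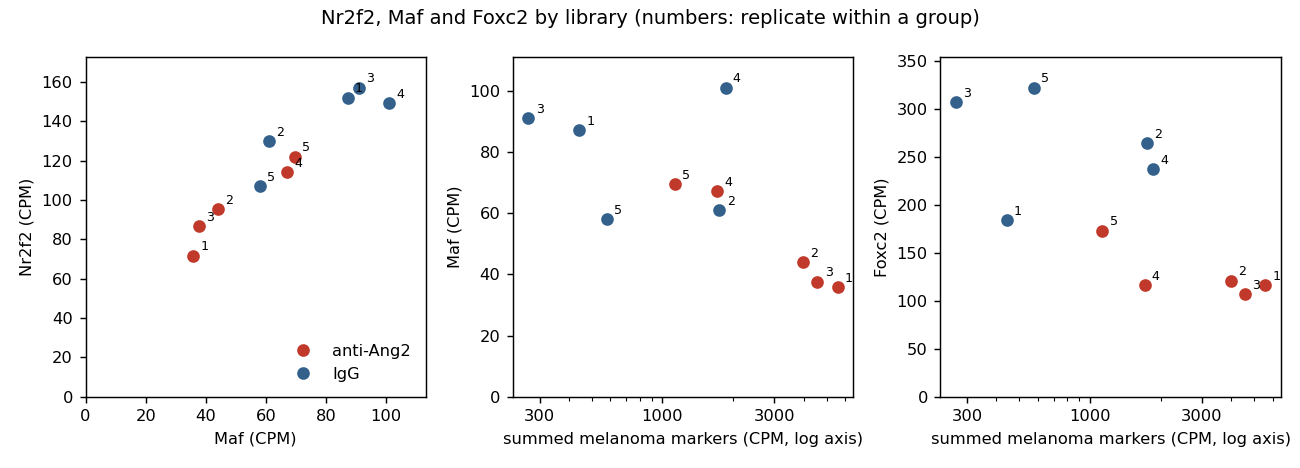
Each point is a library (red anti-Ang2, blue IgG, numbered by replicate): Nr2f2 against Maf in CPM on the left, and Maf and Foxc2 in CPM against the summed CPM of 12 melanoma markers (log axis) in the middle and on the right. Nr2f2 and Maf line up (r = 0.96 with the treatment kept in), and anti-Ang2 1, 2 and 3, with melanoma sums of 3980 to 5580 CPM, have the lowest Maf.

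Prox1, Sox18, Foxc2 and Gata2 were the highest of their families per length, while Nr2f2 and Maf were below relatives. Sox18 was the highest of 16 Sox genes, and the next, Sox4, a SoxC factor, averaged 135 ± 12.3 FPKM in anti-Ang2 and 102 ± 17.1 FPKM in IgG libraries (adjusted p = 0.0627 by edgeR). Sox10, a melanocyte lineage factor, had 74.9 ± 41.7 FPKM in anti-Ang2 and 21.6 ± 15.9 FPKM in IgG libraries (adjusted p = 0.123 by edgeR). It is itself a part of the melanoma sums above. Of 12 Sox genes tested, only Sox13 changed, at 9.95 ± 1.38 FPKM in anti-Ang2 and 14.9 ± 2.12 FPKM in IgG libraries (log2 fold change -0.60 ± 0.11, adjusted p = 0.0105 by edgeR). Foxc2 was the highest of 31 Fox genes on average and the 1 that changed of 20 tested; Foxo1, a brake on vessel growth, had 28.9 ± 2.88 FPKM in anti-Ang2 and 34.2 ± 2.05 FPKM in IgG libraries (adjusted p = 0.142 by edgeR). Besides Gata2, Gata6 had 1.02 ± 1.06 FPKM in anti-Ang2 and 6.77 ± 5.81 FPKM in IgG libraries (adjusted p = 0.123 by edgeR), a wide spread between mice. Maff, a small Maf factor, stood above Maf, at 50.9 ± 9.59 FPKM in anti-Ang2 and 39.6 ± 4.62 FPKM in IgG libraries (adjusted p = 0.222 by edgeR). Nr2f6, a relative of Nr2f2, had 27.9 ± 1.71 FPKM in anti-Ang2 and 27.8 ± 3.90 FPKM in IgG libraries (adjusted p = 0.961 by edgeR).

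Genes that the factors are known to act on, or to act with, were described by list. The lists were chosen with earlier results of these data known, so their shares are description and not a test. Of 23 reported targets, 3 rose, 5 fell and 15 did not pass, with a median log2 fold change of -0.37; 21.7% were called lower and 13.0% higher, against 2.8% and 1.34% of all tested genes. The targets that fell were Nrp2 (-1.49), a co-receptor for VEGF-C, the fibronectin receptor subunit Itga9 (-1.11), which valve leaflets need, the gap junction protein Gja4 (-1.23), Kdr (-0.80), which encodes VEGFR-2, and Notch1 (-0.52). The edgeR adjusted p of these 5 ran from 0.00142 to 0.0384. The targets that rose were Angpt2 (2.07), which encodes Ang2 itself, Cxcr4 (1.20) and Edn1 (1.03), where Cxcr4 averaged 9.43 ± 2.55 CPM in anti-Ang2 and 4.09 ± 1.27 CPM in IgG libraries. Leaving out 1 library ended the call of Cxcr4 for anti-Ang2 1, 3 or 4 and IgG 1, 2, 3 or 5 (adjusted p 0.0627 to 0.0751 by edgeR). It ended that of Edn1 for anti-Ang2 1, 2, 4 or 5 and IgG 2, 3, 4 or 5 (0.0538 to 0.109), and that of Notch1 for any anti-Ang2 library and IgG 1, 3 or 5 (0.0581 to 0.0997).

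Of 33 tested genes of other endothelial factors, 1 rose and 6 fell, with a median log2 fold change of -0.22. Thus 18.2% were called lower and 3.03% higher, against 2.8% and 1.34% of all tested genes. The ETS factors Elk3 and Erg, which guide endothelial gene expression, had log2 fold changes of -0.67 and -0.42, and the homeobox factor Meox2 of -1.47. Elk3 averaged 471 ± 60.7 CPM in anti-Ang2 and 747 ± 79.8 CPM in IgG libraries. Meox2 averaged 9.65 ± 1.41 CPM in anti-Ang2 and 26.8 ± 8.99 CPM in IgG libraries. Hlx, a homeobox factor, was the 1 that rose (log2 fold change 1.0 ± 0.24, adjusted p = 0.0432 by edgeR), and it lost that call without anti-Ang2 1, 2, 3 or 4 or IgG 2, 3, 4 or 5 (0.0542 to 0.0936). Leaving out 1 library ended the call of Erg for anti-Ang2 3 (adjusted p = 0.0535), anti-Ang2 4 (0.0501), IgG 3 (0.0506) and IgG 5 (0.0565), each by edgeR.

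Of 29 tested genes of valve structure and signals, 1 rose and 8 fell, with a median log2 fold change of -0.19. Here 27.6% were called lower and 3.45% higher, against 2.8% and 1.34% of all tested genes. Itga9 and Gja4 are counted here and among the targets. The receptor Ephb4 and its ligand Efnb2, a pair needed for valve formation in the mouse, fell, with log2 fold changes of -0.77 and -1.39. Ephb4 averaged 610 ± 49.8 CPM in anti-Ang2 and 1040 ± 87.3 CPM in IgG libraries, and Efnb2 171 ± 31.9 and 449 ± 96.2 CPM. Tek (Tie2) had a log2 fold change of -1.32. By edgeR, the adjusted p of each of these 3 genes was 0.00142 or lower. Fibronectin (Fn1), the matrix ligand of Itga9 in valve leaflets, was the 1 that rose, with a log2 fold change of 1.21 (adjusted p = 0.00155 by edgeR). With the melanoma sum as a covariate, 4 of these 29 genes were lower and 0 higher, as 2 and 1 were of the 23 targets and 1 and 0 of the 33 other factors. With the macrophage sum, 4 were lower and 1 higher among the 29 genes of valve structure. Among the targets 1 was lower and 1 higher, and among the other factors 0 of either.

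**Figure D5:**
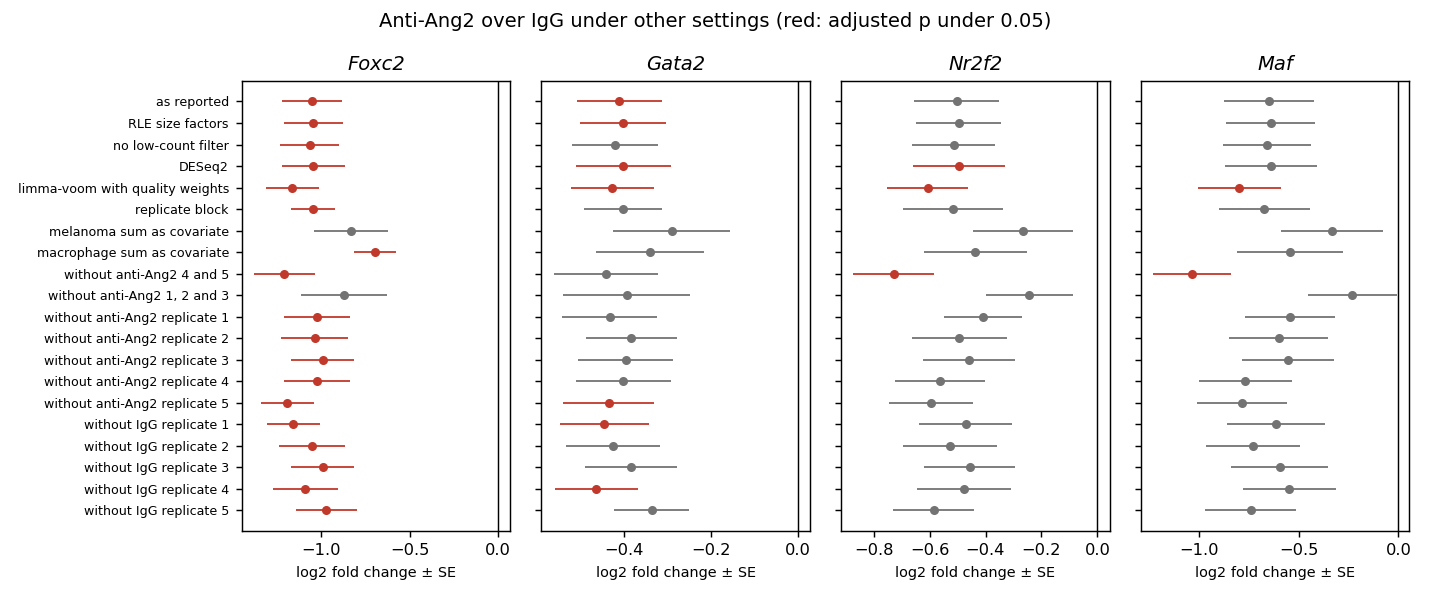
Log2 fold change of Foxc2, Gata2, Nr2f2 and Maf, anti-Ang2 over IgG, under each processing setting (points, with bars of 1 SE; separate scales), in red where the adjusted p is under 0.05. Foxc2 passes in all settings except with the melanoma covariate (-0.83) and without anti-Ang2 1, 2 and 3 (-0.87), and all 4 factors stay below 0 in every setting shown.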

How the data were processed

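RNA of LEC sorted from MT-ret melanomas was sequenced from 10 mice with PicoPure extraction and SMART-Seq v4 cDNA, a kit that does not mark strand, per the labels' protocols. STAR, featureCounts and DESeq2 with mm10 are named in the submitters' processing notes; versions and annotation release are not given in the sources used here. The deposited table holds raw gene counts, as the authors made them, which fed every test, and the FPKM values the authors deposited, used for levels and for a repeat of the ratios. Deposited TPM is treated as a score, and the deposited baseMean as a signal; neither was used. From the authors' deposited comparison, log2 fold changes and adjusted p-values are quoted only where named.

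Counts were tested with edgeR 4.0.16 in R 4.3.3 (quasi-likelihood F test, two-sided, TMM, filterByExpr with a minimum count of 10 and total of 15, Benjamini-Hochberg over 16240 genes, threshold 0.05); limma 3.58.1 and DESeq2 1.42.0 were alternatives. CPM is TMM-scaled, with a prior count of 2 on the log2 scale. Ratios and marker sums were compared by exact permutation. Correlations used 100000 permutations within groups. Other tools were Python 3.11.15 with scipy 1.17.1, numpy 2.4.6, pandas 2.3.3 and, for figures, matplotlib 3.10.9. The series design states independent biological replicates. The factors and gene lists were chosen with earlier results of these data known. All 9 factors are named, and of each other list the 4 called genes of smallest p in each direction, or all where the count is 5 or fewer, except for some items that are not reported here; likeness names the 3 genes of highest r, and families at most 6 by level. Of 9 factors, 7 matched GENCODE M21 by versioned ID and 2 by ID alone.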

Additional observations from a re-analysis of the deposited data

Results flagged for a closer look

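Among 50 groups of values, 3 had a library whose gap to the nearest of the others exceeded the critical value of 0.71 of the group's range, where chance gives about 1 in 20. Foxc2 in anti-Ang2 5 was 173 CPM, the next library 121 CPM and the lowest 107 CPM (gap over range 0.784). The log2 ratio of Gata2 to Foxc2 in IgG 1 was -0.157, and the next was -0.551 (0.799). The macrophage marker sum in IgG 1 was 176 CPM, and the next was 28.2 CPM (0.967).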

How the results depend on the processing

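Of the 9 factors, the count called lower was 2, and 0 were called higher in every setting. The lower count was 1 without the low-count filter, 4 with limma-voom and quality weights, 3 with DESeq2, 3 without anti-Ang2 4 and 5 (Foxc2, Nr2f2 and Maf, not Gata2), 0 with the melanoma sum and 1 with the macrophage sum as covariate, 0 without anti-Ang2 1, 2 and 3, and 1 to 2 without 1 library. Blocking by replicate number, which does not pair the mice (correlation of deviations -0.125 to 0.113), left 1 of 9 factors (Foxc2), 82 genes higher and 268 lower over all genes, and 3 targets lower.
Of targets, 1 rose with the melanoma sum, the macrophage sum or without anti-Ang2 4 and 5, and 1 to 2 without 1 library; 8 fell with DESeq2, 2 with the melanoma sum, 1 with the macrophage sum, 2 without anti-Ang2 1, 2 and 3, and 4 to 5 without 1 library. Of other endothelial factors, 0 rose without the filter, with either sum, without anti-Ang2 4 and 5 or without anti-Ang2 1, 2 and 3, and 0 to 1 without 1 library; 10 fell with DESeq2, 1 with the melanoma sum, 0 with the macrophage sum, 0 without anti-Ang2 1, 2 and 3, and 3 to 8 without 1 library (3 without anti-Ang2 3, IgG 3 or IgG 5). Of valve genes, 2 rose with DESeq2 and without anti-Ang2 4 and 5, 0 with the melanoma sum, and 1 to 2 without 1 library; 4 fell with either sum and 8 to 9 without 1 library.
Over all genes, 810 rose and 880 fell with DESeq2, 670 and 780 with limma-voom, 24 and 91 with the melanoma sum, 29 and 116 with the macrophage sum, 55 and 178 without anti-Ang2 1, 2 and 3, and 82 to 326 and 259 to 468 without 1 library (82 and 259 without IgG 3, 326 higher without anti-Ang2 5); 531 rose without anti-Ang2 4 and 5. Of 7 ratios, 0 to 5 passed, and of 9 marker sums 0 to 2 (2 without anti-Ang2 5), without 1 library. The causes were not tested. At 38090933 counts or more per library, the spread between libraries exceeded counting error.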
